A study of Mus musculus with 8 samples.

Results

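Bisulfite sequencing reads a CpG separately through the cytosine of each DNA strand, and 4672 promoter CpGs of cultured mouse spermatogonia had 1 strand that read as methylated and 1 that read far lower. These strand-discordant CpGs were selected on the measured values themselves: a CpG was kept when the mean methylation levels of its + and − strands over 8 cell lines differed by 30 percentage points or more. Of the 203645 promoter cytosines measured, 80739 pairs formed a CpG with both strands, so the members were 5.79% of the paired CpGs and the other 76067 were the CpGs they were set against. The + strand was higher at 2316 members and the − strand at 2356. All but 1 of the members lay inside the recognition site of MspI, the enzyme that cut the DNA for the assay, and neighbouring CpGs read low at nearly all members that had a measured neighbour.

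GS (germline stem) cells are a culture of spermatogonia that retains stem cell activity, and these were derived from CD9-sorted cells of mature testes. All 8 lines were C57BL/6 (B6), wild type by label and untreated, with 1 library each: control-F1 lines 29, 37, 44 and 45 came from mice born by natural mating, and ICSI-F1 lines 11, 17, 20 and 21 from mice conceived by intracytoplasmic sperm injection. The study calls the injected sperm wild type but took it from mice with an Egfp transgene, and whether a line carries it was not given. Age was not given in the labels. The median coverage of a cytosine was 77 to 89 reads per line after scaling by the authors. No molecular identifiers were described for the libraries, so this coverage counts reads and not separate molecules. A line is 1 culture, so the spread between 4 lines mixes animal, culture and library. The label description field was empty for lines 29, 37, 11 and 17 and filled for lines 44, 45, 20 and 21. These are called the empty set and the filled set, and each holds 2 lines of either group.

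Symmetric methylation is the usual state of a CpG. After DNA replication UHRF1 recognises the half-methylated CpG and DNMT1 methylates the new strand, which keeps both strands alike, and a CpG methylated on 1 strand only is called hemimethylated. In reduced representation bisulfite sequencing (RRBS), MspI cuts within the site CCGG after its first cytosine, whatever the methylation of the CpG, and each fragment thus starts and ends in a cut site. In RRBS as usually done, the recessed ends left by the enzyme are filled in with supplied nucleotides, so that the CpG cytosine at the 3′ end of a fragment is a supplied one, and its strand at that site is read from the genome only in the fragment next door or in an uncut molecule. The 3′ end of the left-hand fragment carries the + strand of the CpG and the 3′ end of the right-hand fragment carries the − strand. Below, the fragment whose 3′ end holds the higher-reading cytosine is called the facing fragment, and the one on the other side of the cut is called the opposite fragment.

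The reference sequences (GRCm38.p6, the mm10 assembly) around the members with the largest difference of either sign show the arrangement. The windows run from an MspI site to the next, on the + strand from 5′ to 3′, with each CCGG in capitals. Not every member with a large difference is shown, and none whose window overlaps an annotated exon.
Zfp362, chr4:128806484-128806560: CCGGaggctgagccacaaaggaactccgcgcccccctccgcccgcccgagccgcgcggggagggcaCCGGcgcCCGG
Klf10, chr15:38300922-38300999: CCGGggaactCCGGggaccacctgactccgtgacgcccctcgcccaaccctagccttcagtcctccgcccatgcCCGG
Kcnj4, chr15:79505768-79505906: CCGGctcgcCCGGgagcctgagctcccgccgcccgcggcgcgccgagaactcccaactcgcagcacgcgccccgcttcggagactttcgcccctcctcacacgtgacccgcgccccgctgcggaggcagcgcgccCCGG
In Zfp362 the member is the CpG of the second site, 66 bases from the site to its left and 7 from the site to its right, and its + strand was the higher one. Klf10 and Kcnj4 are the reverse case: the member is again the second site, but the short interval (10 and 9 bases) is on the left, the long one (64 and 126 bases) is on the right, and the − strand was higher.

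Both strands of the Zfp362 CpG were read in every line and never came near each other. Zfp362, a zinc finger gene, had the largest difference of all members (chr4:128806551-128806552, in a CpG island with no annotated gene over it in GENCODE M21). Its + strand read 100% in 7 lines and 97.6% in ICSI-F1 line 20, and its − strand read 0% in 6 lines, 2.83% in control-F1 line 45 and 7.95% in ICSI-F1 line 11. The mean levels were 99.7% ± 0.842 and 1.35% ± 2.85 (SD, n = 8), a difference of 98.4 percentage points, on 20 to 42 reads of the + strand and 32 to 111 of the − strand. Klf10, which encodes a transcription factor induced by TGF-β, led the CpGs with the − strand higher (chr15:38300933-38300934). Its − strand read 100% in 7 lines and 97.4% in ICSI-F1 line 17, while the + strand lay between 0% and 6.85%, and the strands differed by 97.8 percentage points. No line of either group overlapped between strands at these sites.

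Other CpGs with differences near the largest lay beside genes of unrelated function. With the + strand higher, these included Rad50 (98.1 points), whose product acts in double-strand break repair, Cul4a (97.6 points), a scaffold of ubiquitin ligases, Smpd3 (97.1 points), a neutral sphingomyelinase, Cisd1 (97.1 points), Arfgef1 (97.0 points) and Psmc4 (96.9 points), a proteasome subunit. At Rad50, Smpd3 and Arfgef1 the higher strand read 100% in all 8 lines. With the − strand higher, they included Sh3bp5 (97.7 points), Kcnj4 (97.7 points), an inwardly rectifying potassium channel, Fscn1 (97.6 points), an actin bundler, Churc1 (97.6 points), Mcl1 (97.4 points), an inhibitor of apoptosis, and the noncoding 4933433G15Rik (97.4 points). Each of these CpGs, Zfp362 and Klf10 included, lay in an MspI site with a facing fragment of 55 to 147 bases.

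Strand differences of 60 to 90 points were seen at 1608 members and of 90 or more at 752, and the remaining 2312 were below 60. The median member differed by 60.3 points, the median of the other paired CpGs by 1.20 points. At the threshold, Zfp592 and Lrfn3 were just inside with 30.0025 and 30.0005 points, and Lcor and Lrp12 were just outside with 29.9991 and 29.9907 points. These 4 also lay in MspI sites, so the threshold divides a continuous range of differences. Zfp592 and Lrp12 have MspI sites at a short distance on both sides, as their windows show.
Zfp592, chr7:80993517-80993623: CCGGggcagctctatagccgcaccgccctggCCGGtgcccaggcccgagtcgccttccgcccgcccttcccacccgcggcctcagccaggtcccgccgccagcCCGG
Lrp12, chr15:39944104-39944251: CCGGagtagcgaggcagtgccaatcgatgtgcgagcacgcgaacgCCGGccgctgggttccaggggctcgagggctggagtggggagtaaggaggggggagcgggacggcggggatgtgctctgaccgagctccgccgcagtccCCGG

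**Figure D1:**
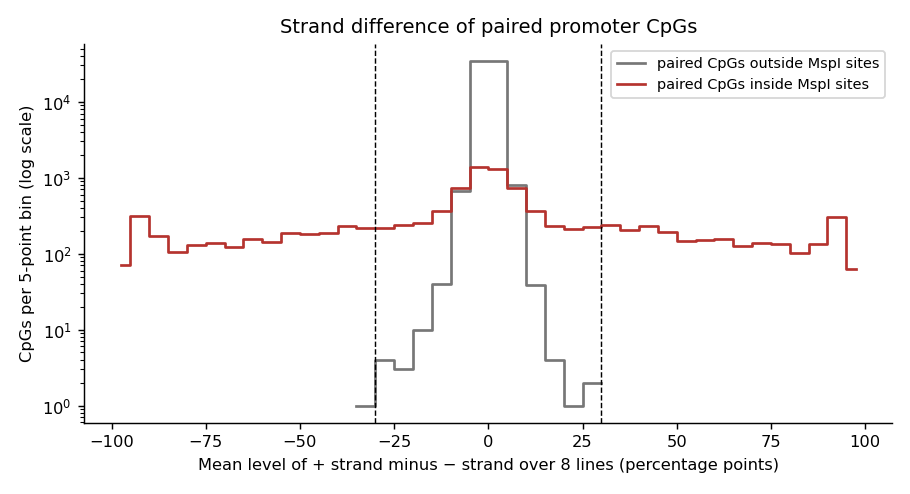
Number of paired promoter CpGs (log scale) per 5-point bin of the difference between the mean + strand and − strand levels over 8 lines, for CpGs inside MspI sites (red) and outside them (grey). Dashed lines mark 30 points in either direction; 1 CpG outside MspI sites lies beyond them and 4671 inside.

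The recognition site was not part of the selection. Of the 4672 members, 4671 (99.98%) were the CpG of a CCGG, against 6246 (8.21%) of the other paired CpGs. Among the 6185 other paired CpGs whose mean level lay between 15% and 85%, so that a difference of 30 points was arithmetically possible, 89.3% were in MspI sites too. Outside MspI sites the 69822 paired CpGs had a median absolute strand difference of 1.11 points and a 99th percentile of 6.31 points.

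A single member lay outside any CCGG and was singled out after its values were seen. It is 77 bases from the listed start of Gm15966, a noncoding gene, at chr16:91329120-91329121, with no annotated gene over it. Its surroundings are shown with the CpG in capitals.
Gm15966, chr16:91329090-91329151: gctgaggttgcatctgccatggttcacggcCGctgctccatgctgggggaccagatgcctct
The − strand averaged 47.5% ± 26.8 and the + strand 14.5% ± 12.1 (SD, n = 8). The strand difference ranged from 5.46 points in control-F1 line 29 to 75.8 points in ICSI-F1 line 17, on only 13 reads of the + strand in the latter. Coverage of the + strand fell as low as 13 reads and its 6 neighbouring cytosine readings averaged 34.2%, between the levels of its strands. It lost membership when either ICSI-F1 line 11 or ICSI-F1 line 17 was left out, since all 4707 and 4715 members then lay in MspI sites.

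The higher strand had a median level of 66.9% over the members, with the central 90% of them between 38.4% and 98.5%. The lower strand was uniformly low, with a median of 4.89% and the central 90% between 2.35% and 17.1%. Other paired CpGs inside MspI sites had a median level of 24.5% with the strands averaged, and those outside MspI sites 2.10%. Fewer reads covered the higher strand than the lower at 4394 members (94.0%), and the medians of the mean coverage were 43.9 and 94 reads. At the other paired CpGs in MspI sites the strand with the higher level had fewer reads at 63.0%.

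Neighbouring cytosines sided with the lower strand. Within 50 bases, and leaving out MspI sites, 4137 members had at least 1 measured cytosine, and the median level of these neighbours was 2.24% (central 90% from 1.1% to 5.06%). They were closer to the lower strand at 4133 members. The 4 exceptions were Gm15966 and CpGs of Dab2ip, Spaar and Pla2g3, all outside CpG islands, where neighbours averaged 34.2%, 78.9%, 76.8% and 62.0%. At Dab2ip (chr2:35557884-35557885), which encodes a Ras GTPase-activating protein, the higher strand read 94.5% ± 6.14 and the lower 56.9% ± 22.8 (SD, n = 8). No step between strands was seen 1 CpG away: in the nearest 10 bases towards the facing fragment, neighbouring cytosines had a median of 2.06% on the higher strand and 1.99% on the lower strand. The other MspI-site CpGs with neighbours under 10% numbered 5725, and they had a median level of 24.1% against 2.05% for their neighbours, so the elevation over the surroundings was not confined to the members.

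**Figure D2:**
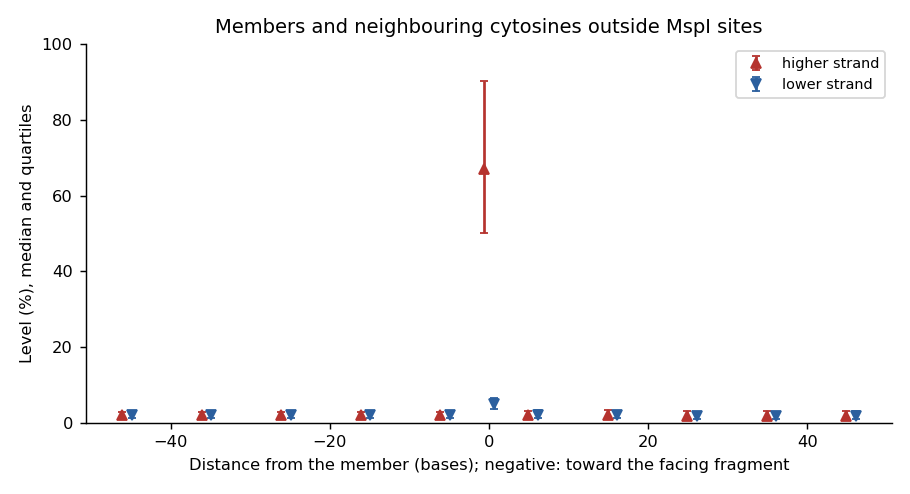
Median level (%) with quartiles of the higher strand (red) and lower strand (blue) at the members in MspI sites (distance 0) and at cytosines outside MspI sites up to 50 bases away, by distance in bases, oriented so that the facing fragment is on the negative side. The higher strand stands at a median of 66.9% at distance 0 and all the neighbouring bins have medians of about 2% on either strand.

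Distance to the neighbouring MspI sites separated members by sign. Where the + strand was higher, the left fragment had a median length of 80 bases and the right 226. Where the − strand was higher, the order turned, with 229 bases on the left and 81 on the right. In all 4671 members in MspI sites the facing fragment was shorter than 150 bases, the read length, and ranged from 21 to 149 bases. This was nearly as common among the other paired CpGs in MspI sites (96.4%), and so does not set the members apart. The facing fragment was the shorter one at 86.4% of members, and at 49.6% of the other paired CpGs in MspI sites, where both fragments had a median of 65 bases. At 631 members the opposite fragment was the shorter, and in 507 of these it was under 30 bases.

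Membership was concentrated at sites with exactly 1 neighbouring fragment of 30 to 149 bases. There were 5654 such paired CpGs in MspI sites, of which 4090 (72.3%) were members, and the median absolute strand difference was 48.7 points. At 4776 sites with such a fragment on both sides 366 (7.66%) were members and the median difference was 6.03 points. At 487 sites with such a fragment on neither side 215 (44.1%) were members. Where there was exactly 1, the higher strand was the one at the 3′ end of that fragment at 4072 of 4090 members (99.6%), and at 81.6% of the 1564 other CpGs. Sites with strands alike were not low: the 4155 other paired CpGs in MspI sites whose strands differed by under 10 points had a median level of 24.6%, and both neighbouring fragments were under 150 bases at 90.3% of them, against 19.08% of the members.

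The level of the higher strand differed with the length of the opposite fragment. It had a median of 98.2% at the 283 members whose opposite fragment was under 20 bases. At an opposite fragment of 20 bases up to 149 it had medians of 50.4%, 52.8%, 56.4%, 53.6% and 51.6% in 5 steps of length. The median was 46.7% at the 948 members with an opposite fragment of 150 to under 200 bases, 59.7% at 200 to under 300 bases (1428 members), 80.1% at 300 to under 400 bases (591 members) and 95.8% at 400 bases or more (813 members). Coverage of the higher strand fell over the same steps, from a median of 62.6 reads at 150 to under 200 bases to 49.5, 35.9 and 32.9 reads. The lower strand had medians of 4.95%, 4.79%, 4.67% and 4.78% at these 4 lengths. It was higher where the opposite fragment was of 20 to 149 bases, with medians of 6.10%, 10.9%, 10.1%, 9.53% and 8.06% over the 5 steps, and was 4.04% under 20 bases. The higher strand also differed by the facing fragment, from a median of 57.4% at 30 to 59 bases to 91.1% at 120 to 149 bases. Whether end filling produced the higher-strand readings was not tested, as the files hold no reads.

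**Figure D3:**
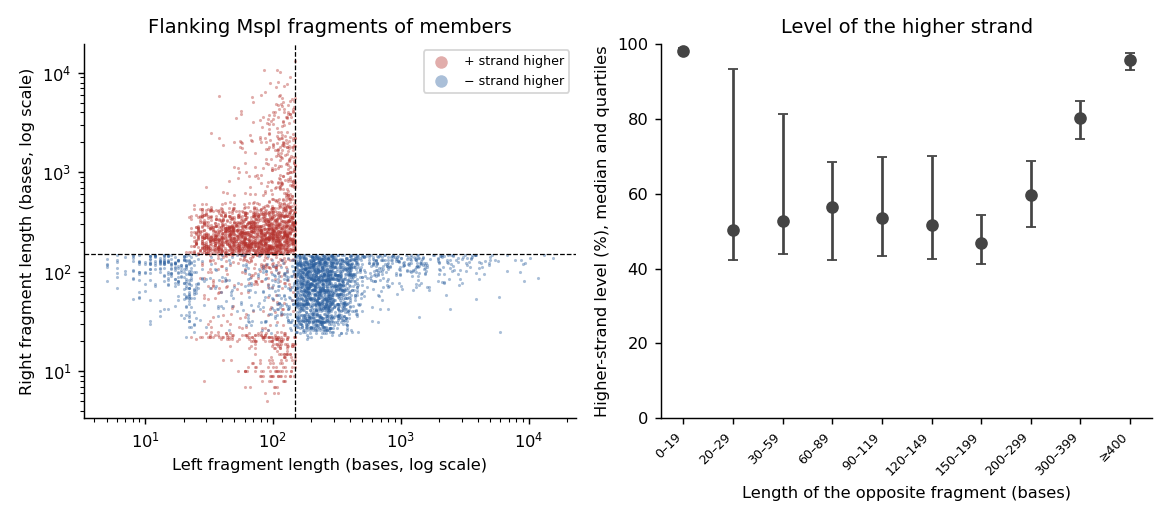
Left, the lengths in bases (log scales) of the left and right MspI fragments next to each member, for members with the + strand higher (red) and the − strand higher (blue); dashed lines mark 150 bases, below which every facing fragment lies. Right, median and quartiles of the higher-strand level (%) by length of the opposite fragment, lowest at 150 to under 200 bases (46.7%) and highest under 20 bases (98.2%).

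Single fragments could be followed from end to end. Of 4209 MspI fragments under 150 bases with the CpGs of both ends read on both strands, 512 had a member at either end, and 1669 had a member at 1 end. Among the 512, 487 had the − strand higher at the left end and the + strand higher at the right end, 25 had the reverse, and none had the same strand higher at both ends. The fragment with the largest difference at its weaker end lay upstream of Dop1b. A second, upstream of Csnk1g2, a casein kinase, is shown beside it.
Dop1b, chr16:93711130-93711265: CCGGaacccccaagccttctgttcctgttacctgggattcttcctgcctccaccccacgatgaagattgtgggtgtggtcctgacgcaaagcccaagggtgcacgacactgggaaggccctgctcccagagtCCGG
Csnk1g2, chr10:80621976-80622090: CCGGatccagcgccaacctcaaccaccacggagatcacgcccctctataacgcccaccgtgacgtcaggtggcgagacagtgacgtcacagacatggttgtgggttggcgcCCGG
The left site of the Dop1b fragment read 2.91% on the + strand and 96.9% on the − strand, and the right site, 132 bases on, read 99.5% on the + strand and 3.29% on the − strand. At Csnk1g2 the left site read 2.36% and 98.1% and the right site 97.7% and 4.24%. In both fragments the high readings were the CpG cytosines at the 3′ ends, 1 on each strand.

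Members were spread over promoters of many kinds. They belonged to 3344 of the 7551 genes with paired CpGs (44.3%), with 1 member in 2332 genes. CpG islands held 60.4% of the members, island shores 24.6%, shelves 0.942% and the rest of the genome 14.0%. Other paired CpGs in MspI sites were in islands at 72.6% and in shores at 12.1%. The median distance from the listed start was 201 bases for members and 151 bases for other MspI-site CpGs. The coding strand of the gene was the higher one at 44.2% of members and 52.2% of other MspI-site CpGs, and 18 members (0.385%) lay on the X chromosome, beside 0.993% of other MspI-site CpGs.

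Etnk1, which encodes an ethanolamine kinase, had the most members, 7 of its 11 paired MspI-site CpGs (chr6:143166318-143167199), of which 3 had the + strand and 4 the − strand higher. Their differences ran from 32.5 to 78.3 points, while its CpGs outside MspI sites had a median of 2.02% and none exceeded 4.79%. In 5 promoters 5 members were found: Bicdl1, Cpne7, Plekha2, Rap2a and Skil. Cpne7 and Plekha2 had every paired MspI-site CpG as a member, 5 of 5 in each. Rap2a, a small GTPase, held the widest of these, at chr14:120478215-120478216, where the + strand read 100% in all 8 lines and the − strand 5.65% ± 5.46 (SD, n = 8). In Skil, a repressor of TGF-β signalling, the differences ran from 41.3 to 72.8 points. Of the 52 promoters with 4 members, 1810013L24Rik and 2700081O15Rik came first by symbol, with differences of up to 95.2 and 93.2 points. All of these promoters had higher + strands and higher − strands side by side, and outside MspI sites none of their paired CpGs exceeded 7.59%.

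Lists of genes with a known place in the germline or in methylation were described by counts, since none was tested. Genes that set, read or remove DNA methylation had members in 7 of 13 genes with paired CpGs (53.8%), and 13 of their 171 paired CpGs were members (7.60%, against 5.79% of all). Tdg, a glycosylase that removes oxidised methylcytosine, differed by 95.8 points, Smchd1, a factor of X inactivation, by 93.3 points, Setdb1, a histone H3 lysine 9 methyltransferase, by 92.0 points, Gadd45b by 89.9 points and Uhrf2, a relative of the hemimethylation reader UHRF1, by 89.4 points. Germ cell genes had members in 9 of 18 (50%), among them Prdm9, which places meiotic recombination (93.8 points), Bcl6b, a factor in the renewal of spermatogonial stem cells (93.0 points), and Slc25a31, a testis adenine nucleotide carrier (87.8 points). Paired CpGs of germ cell genes outside MspI sites had a median level of 3.16%; these files hold no expression, so the labelled cell type could not be checked by its markers.

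Imprinted genes had members in 10 of 22 (45.5%), and 16 of 260 paired CpGs were members (6.15%). Zim1 differed by 93.2 points, Smoc1 by 89.7, Kcnk9 by 86.4 and Sfmbt2 by 83.5 points. Imprinting marks alleles and not strands, and the study reports the same paternal-type (androgenetic) patterns at the imprinted regions it tested in F1 GS cells. At Zim1, Smoc1, Kcnk9 and Sfmbt2 the lower strand read 3.11% to 6.82%. Housekeeping genes had members in 7 of 14 (50%). The 4 lists lay between 45.5% and 53.8%, near the 44.3% of all genes, and the share of genes with members among those having a paired MspI-site CpG was 71.4% to 77.8% against 63.8%.

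The strand difference recurred in every line, with line 37 apart from the rest. The mean strand difference over the members was 61.0 points in control-F1 line 29, 42.1 in line 37, 68.1 in line 44 and 68.2 in line 45, and 59.7 in ICSI-F1 line 11, 60.2 in line 17, 67.3 in line 20 and 72.2 in line 21. Lines with an empty description field lay at 42.1 to 61.0 and those with a filled one at 67.3 to 72.2, so these sets did not overlap whereas the groups did. The same strand was higher in all 8 lines at 4543 members (97.2%), which the selection favours, and 2097 (44.9%) reached 30 points in every line. Line 37 had the smallest difference at 2836 members (60.7%).

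Among the members, line 37 and the sets differed on the higher strand, and where opposite fragments were of middle length. The sets also differed outside MspI sites, where the mean level of a line was 2.37% to 3.05% in the empty set and 4.07% to 5.23% in the filled set. Mean levels of the higher strand were 49.0% in line 37, 64.3% to 66.4% in the other lines with an empty description field and 74.7% to 78.6% in those with a filled one. The lower strand stayed between 4.63% and 7.69%. Among the 752 members with differences of 90 points or more, whose values also selected them, the higher strand averaged 96.1% to 98.04% in all 8 lines, with 96.8% in line 37. Among members with an opposite fragment of 200 to under 300 bases, its median was 24.7% in line 37, 51.3% to 53.2% in lines 29, 11 and 17, and 72.1% to 79.2% in lines 44, 45, 20 and 21. Coverage moved with it: the median of the higher strand at these members was 82 reads in line 37, 49 to 53 in lines 29, 11 and 17, and 38 to 42 in the filled set. At members with opposite fragments under 30 bases the 8 medians were 95.5% to 100%. What the sets stand for was not given in the sources used here. The paper's supplement lists more RRBS reads for every line of the filled set than for any line of the empty set. Set and sequencing depth therefore cannot be told apart, and the part of coverage in these values was not tested.

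**Figure D4:**
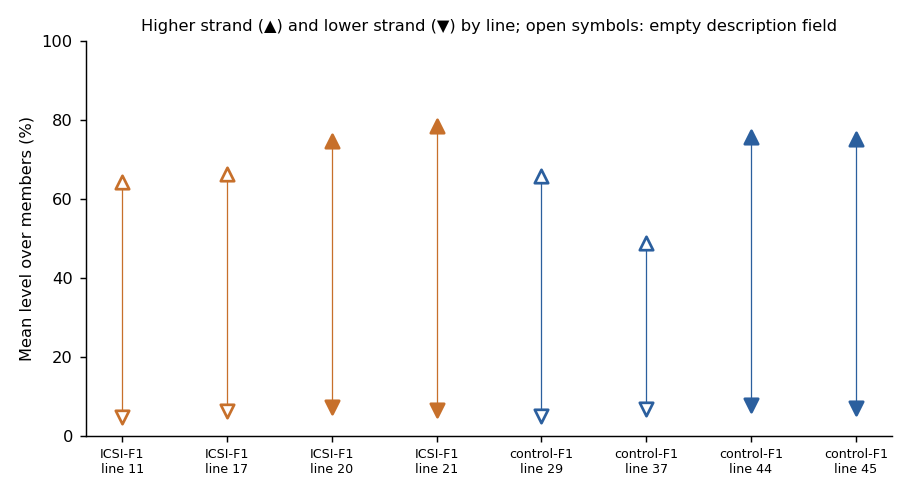
Mean methylation level (%) over the 4672 members of the higher strand (upward triangles) and the lower strand (downward triangles) in each line of ICSI-F1 (orange) and control-F1 (blue); open symbols mark an empty label description field. The higher strand is lowest in control-F1 line 37 (49.0%) and highest in the 4 lines with a filled field (74.7% to 78.6%).

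Membership in 1 group was then read in the other, which had no part in the choice. Of 4587 CpGs with a difference of 30 points or more in the mean of the control-F1 lines, all 4587 had the same strand higher in the ICSI-F1 mean, and 4369 (95.2%) reached 30 points there. Their median difference was 57.0 points in the control-F1 lines that chose them and 65.0 points in the ICSI-F1 lines, with a lowest value of 6.65. In the reverse direction 4726 CpGs were chosen in ICSI-F1 lines, all kept their sign in control-F1 lines and 4369 (92.4%) reached 30 points.

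ICSI-F1 and control-F1 lines were compared to ask whether conception by sperm injection went with a change in the strand difference. The mean strand difference over the members was 59.8 points ± 12.3 in control-F1 and 64.8 points ± 6.01 in ICSI-F1 lines (SD, n = 4 each). The difference of 4.99 points did not exceed the SD of either group, was 8.37 within the empty set and 1.62 within the filled set, and turned to −0.930 without line 37. The higher strand averaged 66.5% ± 12.5 and 71.0% ± 6.77, and the lower strand 6.65% ± 1.19 and 6.14% ± 1.12. No CpG passed a false discovery rate of 0.05 with limma in the strand difference, among members or among all 80739 (0% called, smallest adjusted p 0.715). At an unadjusted p under 0.05 there were 197 members (4.22%), 144 wider and 53 narrower in ICSI-F1 lines, beside 3.29% of all paired CpGs. With the description field as a covariate there were 399 members (8.54%, beside 3.75%), 338 wider and 61 narrower. Without line 37 there were 116 wider and 116 narrower (4.97% of members, beside 3.96% of all). Without line 45 there were 244 wider and 52 narrower (6.34%, beside 3.51%). The median change of the members was 4.45 points wider in ICSI-F1 lines and −0.73 points without line 37, beside −0.16 and −0.31 over all paired CpGs, where each is taken as the higher minus the lower strand.

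Lines of the groups rarely separated. The strand difference was wider in all ICSI-F1 lines than in any control-F1 line at 50 members (1.07%, beside 0.494% of all paired CpGs) and narrower at 17 (0.364%, beside 0.679%). For the level with the strands averaged, no CpG passed with limma either (0% called, smallest adjusted p 0.469), and 159 members had an unadjusted p under 0.05 (3.40%, beside 2.93%), 101 higher and 58 lower in ICSI-F1 lines. Without line 37 the direction turned, with 71 higher and 135 lower (4.41%, beside 3.66%). With the description field as a covariate 388 members (8.3%, beside 4.36%) had such a p, 298 higher and 90 lower. Without line 44 there were 249 members (5.33%, beside 3.04%).

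The rule of a difference over 20 percentage points between group means, with every ICSI-F1 line differing from the control-F1 mean in that direction, was met by 123 of the 9344 member cytosines, at 121 CpGs. Of these 116 were higher in ICSI-F1 lines (1.24%, beside 0.239% of all paired cytosines) and 7 lower (0.0749%, beside 0.0334%). The higher strand held 101 of the 116 increases and the lower strand 15. The predominance of increases did not survive the removal of line 37, which was the lowest of the 8 lines at 93 of the 101. Without it 31 member cytosines were higher (0.332%) and 37 lower (0.396%). Together these were 0.728% of the member cytosines, and 68 of the 384 that then met the rule among all 161478 paired cytosines. With all lines 1.32% of member cytosines and 0.272% of all paired cytosines met it. Members thus still met the rule more often than paired cytosines as a whole, without the predominance of increases. The 101 cytosines differed by a median of 33.3 points within the empty set, 14.2 points within the filled set and 12.6 points over all lines without line 37. The count also rested on other lines, and the count over all paired cytosines rose with it. With all lines, member cytosines were 123 of 440 past the rule, beside 9344 of the 161478 paired cytosines. They were 437 of 909 without line 44, 401 of 835 without line 45, 354 of 769 without line 11 and 234 of 628 without line 17.

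The 8 members with the largest group difference at a cytosine past this rule mostly met it on the lower strand. They were chosen by that difference, so the choice favours groups that do not overlap, and their separation tests nothing. In Man1c1, an alpha-mannosidase gene, the lower strand read 2.91%, 4.08%, 13.7% and 20.99% in control-F1 lines 29, 37, 44 and 45, and 35.8%, 21.8%, 56.9% and 70.1% in ICSI-F1 lines 11, 17, 20 and 21. The ICSI-F1 lines were all above the control-F1 lines, narrowly so for line 17 (21.8%) against line 45 (20.99%). The higher strand was above 90% in every line. Hapln3, a hyaluronan and proteoglycan link protein gene, had a lower strand of 10.1%, 20.5%, 12.5% and 4.00% in the control-F1 lines and 66.7%, 25.5%, 61.5% and 44% in the ICSI-F1 lines, in the same line order. Here too the groups did not overlap. Gm15889 went the other way, with 37.4%, 82.6%, 46.4% and 56.2% in control-F1 and 8.49%, 12.7%, 18.7% and 22.1% in ICSI-F1 lines. It gave the smallest limma p of the 8 for the strand difference, unadjusted p = 0.00341 with an adjusted p of 0.941.

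Gm36210 (difference of 35.3 points at the lower strand), Gm48545 (37.7 points) and Ghr, the growth hormone receptor gene (33.6 points), were higher on the lower strand in ICSI-F1 lines, with overlap between groups at Ghr and none at the other two. Rilp, an effector of the small GTPase RAB7, met the rule on its higher strand, which read 60.6%, 17.3%, 70.4% and 41.9% in the control-F1 lines and 80%, 59.3%, 97.2% and 91.9% in the ICSI-F1 lines. The groups overlapped there, and line 37 was the lowest, with its strands reversed by 5.39 points. Gm15966 was the remaining CpG. None of the 8 passed limma's test of the strand difference (each adjusted p 0.941) or of the averaged level.

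**Figure D5:**
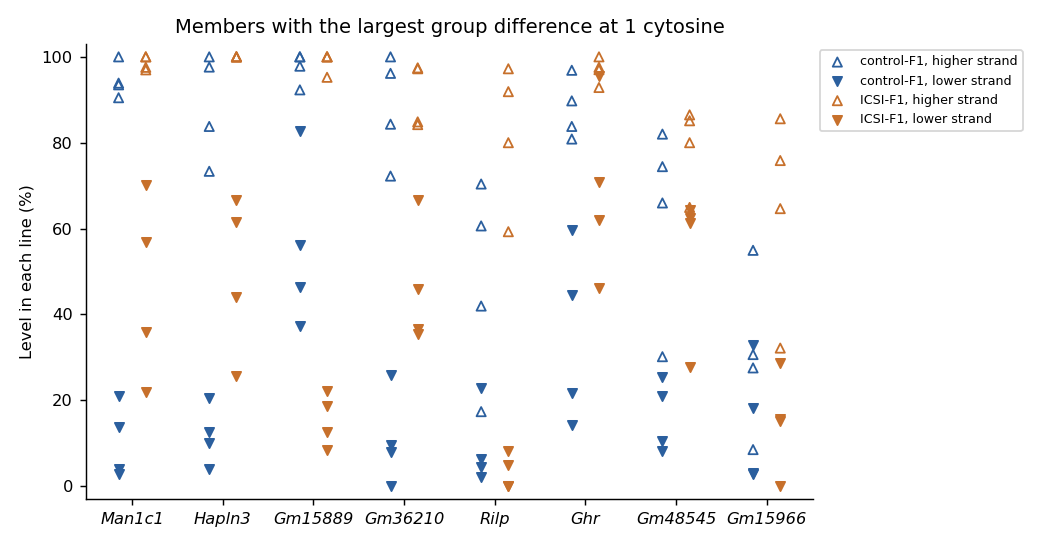
Methylation level (%) in each of 8 lines of the higher strand (open upward triangles) and lower strand (filled downward triangles) at the 8 members with the largest group difference at a cytosine past the 20-point rule, for control-F1 (blue) and ICSI-F1 (orange). At Man1c1, Hapln3, Gm36210 and Gm48545 the lower strand is higher in every ICSI-F1 line than in any control-F1 line, and at Gm15889 it is lower. The choice by group difference favours such separation.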

How the data were processed

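RRBS libraries of 8 GS cell lines (4 control-F1, 4 ICSI-F1) were made with the Zymo-Seq RRBS kit and MspI and sequenced as paired 150-base reads. Per the submitters' processing notes, the authors trimmed with Trim Galore 0.5.0, aligned to mm10 with Bismark 0.20.0 and made the table with methylKit 1.16.0. Read numbers were scaled between lines, cytosines under 10 reads or of extreme coverage were removed, strands were kept apart, and promoter cytosines were annotated. The deposited values are therefore read numbers rescaled and rounded by the authors, handled here as a score and not as raw counts, and no binomial interval was derived from them.

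A level was the percentage of methylated reads, and a mean over lines was unweighted. MspI sites and fragments were read from GRCm38.p6 (NCBI RefSeq) with pyfaidx 0.9.0.4, and exons from GENCODE M21. A neighbour was a cytosine within 50 bases outside MspI sites. Strand differences and averaged levels of all 80739 paired CpGs were tested with limma 3.58.1 in R 4.3.3, with Benjamini-Hochberg adjustment over all of them. The fits were tested on simulated data, where most changes put into the strand difference were missed at every size. For the averaged level most of the smaller changes were missed and most of the larger ones were found. A lack of calls therefore does not show that the groups were alike. Labels do not state the animals, though the line numbers recur among the F1 mouse numbers in the study's supplement. The p-values rest on the spread between lines. The members and gene lists were chosen with earlier results of these data known. Named CpGs were the 8 largest differences of either sign (some are not reported here), the largest of the 8 promoters with most members (ties by symbol), 12 listed genes, 2 CpGs on each side of the threshold, and the 8 largest group differences past the 20-point rule; others are said to have been chosen after their values were seen. Alternatives varied coverage, weighting, threshold, scale, covariate and lines.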

Additional observations from a re-analysis of the deposited data

Results flagged for a closer look

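In 112 values tested, 10 strand differences had 1 line farther from the other 3 of its group than the 95% critical value of Dixon's ratio for 4 samples allows, and chance flags about 1 in 20. Of these, 8 were in control-F1 lines. Line 44 was low at 2700081O15Rik (83.3 points), Cul4a (92.5 points) and Tdg (94.7 points), and line 45 at Churc1 (92.2 points), Klf10 (97.7 points), Sh3bp5 (95.9 points) and Zfp362 (97.2 points). Line 37 was low at Smpd3 (91.8 points). In the ICSI-F1 lines, line 21 was low at Cpne7 (72.3 points, against 91.4 to 95.3) and high at Rad50 (100 points, against 97.3 to 97.7). At 6 of the control-F1 flags the other 3 lines all stood at 100 points, the ceiling of the scale.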

How the results depend on the processing

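The 4672 members numbered 4565 to 4778 when 1 line was left out, and 1854 with at least 30 reads on each strand in every line. Their share in MspI sites was 99.98% and remained between 99.80% and 100% under every alternative run: 100% at 20 reads, 30 reads and a threshold of 40 points, 99.80% at a threshold of 20 points (5572 CpGs), 99.85% in ICSI-F1 lines alone, 99.80% in the lines with an empty description field alone, and 99.91% to 100% with 1 line left out. Cytosines of paired CpGs past the 20-point rule numbered 440, 220 past 25 points, and 384 to 909 with 1 line left out; the highest numbers came without line 44 (909), line 45 (835) and line 11 (769). CpGs chosen in control-F1 lines reached 30 points in ICSI-F1 lines at 95.2%, and at 91.1% with 30 reads; those chosen in ICSI-F1 lines reached it in control-F1 lines at 92.4%, 90.9% with 20 reads and 85.0% with 30 reads. These coverage alternatives, the variance trend in limma and the counts of member cytosines past the 20-point rule without line 37 were chosen after seeing the data. No alternative gave a call at the false discovery rate in either limma comparison. The quasi-binomial model of the strand difference had 10721 of 80529 CpGs (13.3%) at an unadjusted p under 0.05, and 0 after adjustment. Of these 227 were members (4.86% of members), so here members had such a p less often than all CpGs, unlike in the main limma fit. The 561 values of 51 named CpGs under alternatives all moved by less than the SD between lines. For a group alone or a line left out this was fixed by arithmetic, since such a mean cannot move by that SD. Only the read-weighted values could have moved further. The causes of these shifts were not tested. No paired analysis was possible because the groups share no replicate numbers. The higher strand had a median of 38 to 56 reads per line, so its levels moved in coarse steps.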

Other observations

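Highly methylated cytosines of CpG islands were nearly all cut-site cytosines in this table. Of 952 island cytosines with a mean level of 80% or more over the 8 lines, 935 (98.2%) lay in MspI sites, and 846 (88.9%) were the higher strand of a strand-discordant CpG. Outside MspI sites 17 of 134243 island cytosines (0.0127%) reached 80%, and 61 lay between 20% and 80%. MspI sites held 17.1% of the cytosines in the table and 61.9% of the 5416 cytosines at 80% or more.

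Cut-site cytosines read on 1 strand only, 12970 in number, had a mean level of 17.4% and 1142 of them (8.80%) reached 80%, against 3.87% and 1.52% at the 29197 unpaired cytosines outside MspI sites. The mean level of a line was 6.14% to 9.26% over all cytosines and 2.37% to 5.23% without those in MspI sites. Without MspI sites control-F1 lines averaged 3.85% ± 1.26 and ICSI-F1 lines 3.54% ± 1.09 (SD, n = 4 each), and the difference of −0.309 points was −0.146 within the empty set of lines and −0.473 within the filled set. Of the 660 cytosines past the 20-point rule, 327 lay in MspI sites.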
